A study of Trametes versicolor with 12 samples.

Results

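Of 14296 gene models of the white-rot fungus Trametes versicolor, 46 (0.322%) fell to 0.333 or less of their 2-week level by 4 weeks in strain BRFM1218 and stayed within 20% below and 25% above it in the second strain of the study. That strain is from the NIBIO collection and is called the NIBIO strain here. The study has only 2 strains. The sample titles and the figures label this one by its collection number and not as NIBIO. The 46 genes were picked from the measured values themselves. Reads per gene were scaled to the library total (CPM, reads scaled to a common library size) and averaged over the 3 libraries of a group. The age ratio was the 4-week mean plus 1 over the 2-week mean plus 1. A gene also had to average 5 CPM or more in at least 1 group of each strain. Age changes are therefore given below as a description. The rule set no limit on the ratio between strains, and each strain difference was tested, but the same libraries entered the choice, so its direction is not independent of the choice at either age.

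The study sequenced RNA from mycelium grown on agar with 4% malt. There were 4 groups of 3 libraries: BRFM1218 at 2 weeks, BRFM1218 at 4 weeks, the NIBIO strain at 2 weeks and the NIBIO strain at 4 weeks. Total RNA came from triplicate cultures, which the labels call biological replicates, so errors describe the spread between cultures. No mutation, drug or other treatment is named for either strain, and each genotype is represented by 1 strain, so a difference between strains is a difference between these cultures of BRFM1218 and the NIBIO strain.

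White-rot fungi degrade lignin, cellulose and hemicellulose in wood, and Trametes versicolor is known for secreting laccases (copper enzymes that oxidise phenols) and haem peroxidases. On malt agar the fungus takes up maltose, glucose and other nutrients from the plate, and a colony that has covered its plate grows older without fresh medium. Changes of transcript levels with the age of a culture are a common feature of filamentous fungi.

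The selection narrowed in this order. In both strains 8418 models met the 5 CPM limit, 119 of those met the limit on the fall in BRFM1218, and 46 of the 119 (38.7%) were inside the range in the NIBIO strain. Of the other 73 genes, 15 lay below the range in the NIBIO strain and 58 above it. A further 37 models met the limit on the fall but did not reach 5 CPM in either group of the NIBIO strain, and they were not included. Of the 46 members, 45 had a locus tag in the RefSeq annotation and 0 had a symbol, so no function is assigned to any of them. The remaining member is named by its number, protein 127171.

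Several members lay close to the limits. At the limit on the fall, TRAVEDRAFT_32656 and TRAVEDRAFT_51854, both at 0.330, and TRAVEDRAFT_154838 at 0.319 were just inside, and TRAVEDRAFT_49143 at 0.337, TRAVEDRAFT_43299 at 0.338 and TRAVEDRAFT_91618 at 0.350 were just outside. At the lower limit in the NIBIO strain, TRAVEDRAFT_30448 (0.811), TRAVEDRAFT_76066 (0.818) and TRAVEDRAFT_52983 (0.839) were inside. TRAVEDRAFT_75039 (0.799), TRAVEDRAFT_85327 (0.798) and TRAVEDRAFT_176097 (0.796) were outside. At the upper limit TRAVEDRAFT_42853, TRAVEDRAFT_122204 and TRAVEDRAFT_49901 were inside, at 1.247, 1.247 and 1.246, and TRAVEDRAFT_32402 (1.26), TRAVEDRAFT_59116 (1.26) and TRAVEDRAFT_28580 (1.27) were outside.

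Library totals ranged from 31763162 to 74647672 reads. Of these 98.7 to 99.2% were uniquely aligned. The lowest count of a member in a library was 30 reads, and each member had at least 5000 reads over the 12 libraries. In BRFM1218 libraries 1561 to 1971 models had no reads, against 1123 to 1205 in the NIBIO strain. Both strains were counted on the same gene models, and whether their reads align to these equally well was not tested.

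Before any further scaling, the 46 genes together took up 0.582% ± 0.00658 (SD, n = 3) of all reads in BRFM1218 at 2 weeks and 0.0967% ± 0.00223 at 4 weeks. Their summed share in the NIBIO strain was 0.166% ± 0.00531 at 2 weeks and 0.170% ± 0.00398 at 4 weeks. The summed level in aged BRFM1218 was thus below that of the NIBIO strain at either age. In the BRFM1218 2-week libraries 43.4 to 43.7% of the sum came from 3 genes, TRAVEDRAFT_166188, TRAVEDRAFT_69055 and TRAVEDRAFT_141797. Without them the sum was 3283 CPM in BRFM1218 at 2 weeks, 701 at 4 weeks, 1538 in the NIBIO strain at 2 weeks and 1573 at 4 weeks, the same order. The median member stood at 67.3 CPM in BRFM1218 at 2 weeks, 11.2 at 4 weeks, and 17.1 and 16.9 in the NIBIO strain. All expressed models had medians of 40.0, 39.5, 47.0 and 48.4 CPM in these groups.

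Per length of the model, in the authors' deposited RPKM, the median member ranked at percentile 83.4 of all models in BRFM1218 at 2 weeks and 52.8 at 4 weeks. The median rank in the NIBIO strain was percentile 52.3 at 2 weeks and 51.7 at 4 weeks. TRAVEDRAFT_166188 had the highest level per length of the members in BRFM1218 at 2 weeks, 562 ± 12.6 RPKM, followed by TRAVEDRAFT_69055 at 410.4 ± 13.2 RPKM. The member with the highest level per length in the NIBIO strain at 2 weeks was another gene, TRAVEDRAFT_30448, at 431 ± 56.0 RPKM.

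**Figure D1:**
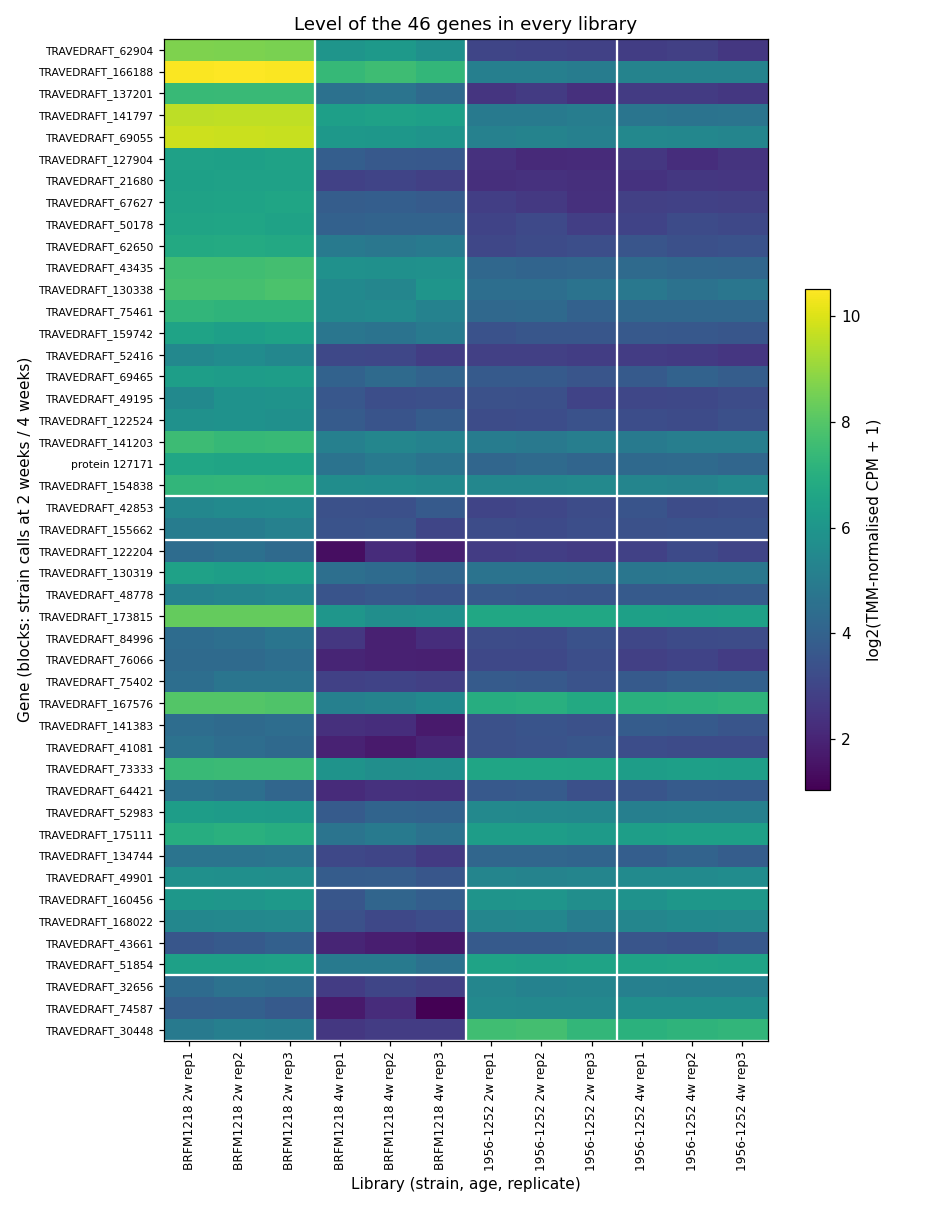
Colour shows log2(TMM-normalised CPM + 1) of the 46 genes (rows) in the 12 libraries (columns); white lines separate the groups and the blocks of genes with the same strain calls, described below. The first block of 21 genes is brightest in the 3 BRFM1218 2-week libraries, and in the last block of 3 genes the 6 libraries of the NIBIO strain are the brightest.

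From here levels are CPM after scaling by trimmed means of M values (TMM), which set the effective library size of BRFM1218 libraries to 0.819 to 0.846 of their total and that of NIBIO libraries to 1.18 to 1.23 of theirs. Fold changes and tests come from edgeR's quasi-likelihood test on all 12 libraries. In BRFM1218 all 46 members were called lower at 4 weeks at an adjusted p under 0.05, against 27.4% of the 12648 models tested (60.4% in either direction), as the choice of the genes requires. Libraries of the 2 ages did not overlap in any of the 46, against 58.8% of tested genes without overlap. The median log2 change was -2.30, with a range from -3.75 to -1.65, and the median of all tested genes was 0.06.

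The most abundant member, TRAVEDRAFT_166188, measured 1422, 1460 and 1417 CPM in the BRFM1218 2-week libraries and 168, 187 and 157 CPM at 4 weeks. In the NIBIO strain it measured 33.7, 33.5 and 31.0 CPM at 2 weeks and 37.5, 37.8 and 37.6 CPM at 4 weeks. Its lowest level in BRFM1218 was thus still above every library of the NIBIO strain. TRAVEDRAFT_69055 had the lowest age ratio of the set, 0.0767, and measured 887, 854 and 841 CPM in young BRFM1218 and 66.1, 65.5 and 61.0 CPM in old. It measured 36.0, 37.4 and 35.1 CPM in the young NIBIO strain and 43.2, 41.6 and 40.0 CPM in old. The libraries of old BRFM1218 came much nearer to those of the NIBIO strain than for TRAVEDRAFT_166188, but did not overlap with them on this scale. Whether they do depends on the scaling. In CPM without TMM its old libraries measured 55.0, 54.4 and 51.6 CPM in BRFM1218 and 52.7, 51.2 and 49.0 CPM in the NIBIO strain, which overlap. The 4-week difference of -0.63 (SE 0.05, adjusted p = 8.13e-10 by edgeR) became -0.08 (adjusted p = 0.131) with library size as the only scaling, so this call was lost.

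TRAVEDRAFT_141797 measured 766, 772 and 785 CPM in BRFM1218 at 2 weeks and 82.8, 86.5 and 81.5 CPM at 4 weeks. Values in the NIBIO strain were 28.7, 28.8 and 32.1 CPM, then 25.5, 24.0 and 24.7 CPM. As with the preceding genes, both BRFM1218 groups lay above both groups of the NIBIO strain. TRAVEDRAFT_62904 measured 404, 400 and 384 CPM in BRFM1218 at 2 weeks and 61.9, 68.1 and 54.6 CPM at 4 weeks. Its levels in the NIBIO strain were 7.06, 6.61 and 6.29 CPM at 2 weeks and 5.73, 6.07 and 4.93 CPM at 4 weeks. It was the member whose strains stood farthest apart in this direction.

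TRAVEDRAFT_21680, with an age ratio of 0.0879, ended near the low level that the NIBIO strain had throughout. It measured 84.8, 87.0 and 86.1 CPM in BRFM1218 at 2 weeks and 6.27, 6.86 and 6.02 CPM at 4 weeks. In the NIBIO strain it measured 3.98, 4.26 and 3.98 CPM at 2 weeks and 4.35, 4.92 and 4.80 CPM at 4 weeks. On this scale the old BRFM1218 libraries stayed just above both groups of the NIBIO strain. In CPM without TMM the old libraries overlapped, with 5.21, 5.70 and 5.09 CPM in BRFM1218 and 5.30, 6.06 and 5.88 CPM in the NIBIO strain. TRAVEDRAFT_137201 went from 171, 175 and 174 CPM to 22.4, 24.4 and 18.8 CPM in BRFM1218. Its NIBIO levels were 4.62, 5.44 and 4.12 CPM at 2 weeks and 5.43, 5.38 and 4.86 CPM at 4 weeks, and these libraries overlapped between ages.

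A further 4 genes among those with the lowest age ratios or the highest levels also fell at intermediate levels. TRAVEDRAFT_67627 fell in BRFM1218 from 93.0 ± 3.12 to 13.2 ± 0.569 CPM, and TRAVEDRAFT_127904 from 86.9 ± 1.82 to 12.3 ± 1.02 CPM. TRAVEDRAFT_130338 fell from 216 ± 8.49 to 49.6 ± 11.5 CPM, with 62.6 CPM in 1 old library against 45.5 and 40.7 in the others. TRAVEDRAFT_43435 fell from 197 ± 5.43 to 55.2 ± 0.728 CPM, with 55.9, 54.5 and 55.1 CPM in its old libraries. In BRFM1218 at 4 weeks the spread was wider than at 2 weeks: the median coefficient of variation of the members was 11.2%, against 3.81% at 2 weeks. For all expressed models it was 7.56% and 4.99%. The members' medians in the NIBIO strain were 6.14% at 2 weeks and 5.68% at 4 weeks, against 4.72% and 3.63% for all expressed models.

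**Figure D2:**
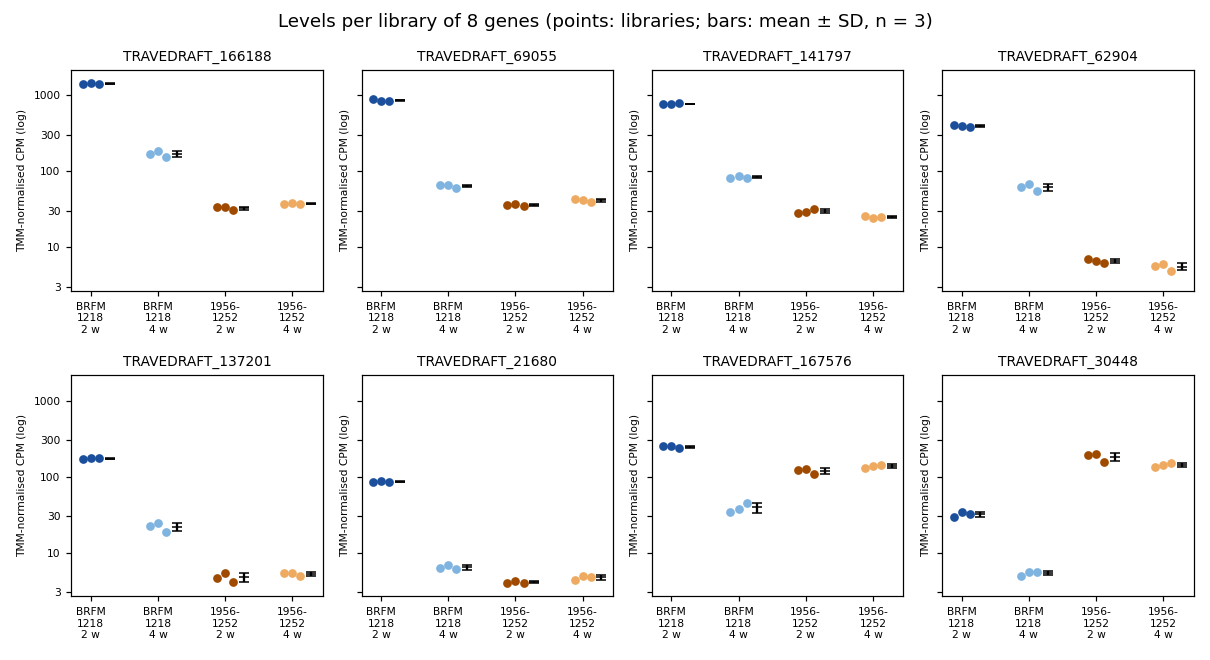
Points are TMM-normalised CPM in each library on a log axis, with bars for mean ± SD (n = 3), for 8 members in the 4 groups. For 6 of them both BRFM1218 groups lie above the NIBIO strain; for TRAVEDRAFT_167576 old BRFM1218 falls below the NIBIO strain, and for TRAVEDRAFT_30448 both BRFM1218 groups do.

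In the NIBIO strain the same genes moved little, as the rule requires. The log2 age change ranged from -0.38 to 0.31 with a median of 0.11, against 0.01 for all tested genes. No member was called with a change of 2-fold or more, against 6% of all tested genes. Libraries of the 2 ages did not overlap for 29 members, against 65.5% of all tested genes. At an adjusted p under 0.05, 14 of the 46 were called, 7 of them higher and 7 lower, against 48.6%, 25.1% and 23.4% of all tested genes. Because the rule limited this same change in these same libraries, the counts describe the choice and are no test of it.

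Within that narrow range the members still differed among themselves. TRAVEDRAFT_49901 measured 39.3, 37.3 and 40.0 CPM at 2 weeks and 46.9 ± 1.82 CPM at 4 weeks, a log2 change of 0.27. TRAVEDRAFT_69055 changed by 0.20. At the other side TRAVEDRAFT_173815 measured 101, 102 and 103 CPM, then 85.3, 83.4 and 84.6 CPM, a log2 change of -0.27. Its 2-week libraries all lay above its 4-week libraries, and those of TRAVEDRAFT_49901 all lay below. The count of members called higher was 4 without BRFM1218 2-week replicate 2, NIBIO 2-week replicate 2 or NIBIO 4-week replicate 3. It was 14 with library size alone as the scaling or with only the NIBIO libraries fitted.

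**Figure D3:**
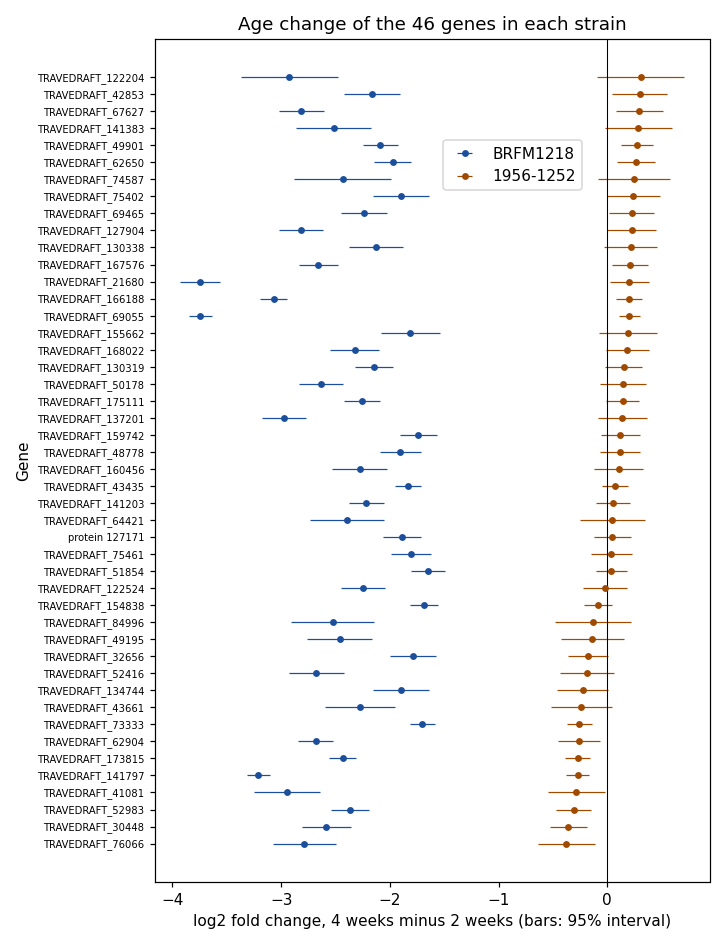
Points are edgeR log2 fold changes from 2 to 4 weeks with 95% intervals, for the 46 genes (rows) in BRFM1218 (blue) and the NIBIO strain (orange). BRFM1218 changes lie between -3.75 and -1.65 and those of the NIBIO strain between -0.38 and 0.31, ranges that follow from how the genes were chosen.

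The difference between the strains at each age was taken as the NIBIO strain minus BRFM1218. The rule fixes that it is larger at 4 than at 2 weeks, for every gene. A high 2-week mean in BRFM1218, which the rule favours, lowers the difference at 2 weeks, and a low 4-week mean raises it at 4 weeks. The 5 CPM limit acts on the levels of both strains as well. The adjusted p of a member below therefore compares libraries that also entered the choice, and the directions are a description.

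At 2 weeks 42 of the 46 members were called, against 84.7% of all tested genes. In 39 (84.8%) the level was lower in the NIBIO strain, against 40.4% of all tested genes, and in 3 (6.52%) it was higher, against 44.4%. Among models that met the 5 CPM limit in both strains, as the members had to, 51% were lower and 35.3% higher. Called differences of 2-fold or more were found in 33 of the lower and 2 of the higher genes, against 23.3% and 29.2% of all tested genes. The median log2 difference of the members was -1.85, against 0.09 for all tested genes and -0.21 for models that met the 5 CPM limit in both strains. Libraries of the 2 strains did not overlap in 45 members, against 86.6% of tested genes. With library size as the only scaling, 37 members were lower and 7 higher, and the median was -1.33, against 0.60 for all tested genes. In that scaling 67.9% of called genes were higher in the NIBIO strain, against 52.4% with TMM.

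At 4 weeks the members divided, with 44 of 46 called, against 85.5% of all tested genes. The NIBIO strain was higher in 23 (50%, all tested genes 44.9%) and lower in 21 (45.7%, all tested genes 40.6%). Among models expressed in both strains 35.9% were higher and 51.5% lower. The share of members called lower, 45.7%, lay between this 51.5% and the 40.6% of all tested genes. Whether it differs from either was not tested. The median log2 difference was 0.13, against 0.11 for all tested genes and -0.23 for models expressed in both strains. Libraries of the strains did not overlap in 44 members, against 86.1% of tested genes. The split of called genes in the whole table was 52.6% higher with TMM and 68.8% with library size alone. Upper quartile scaling gave 24 members higher and 14 lower, and library size alone gave 12 lower, so the members near 0 change sides with the scaling.

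Read across both ages, 5 patterns held all members. In 21 genes the NIBIO strain was lower at both ages, a pattern found in 33.5% of all tested genes. In 16 it was lower at 2 weeks and higher at 4 weeks, found in 2.85%. In 4 there was no call at 2 weeks and a higher level at 4 weeks (4.81%), in 3 it was higher at both (37.3%), and in 2 it was lower at 2 weeks with no call at 4 weeks (3.99%). The rule itself moves genes toward the patterns in which the difference shifts upward, so these shares are a description.

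**Figure D4:**
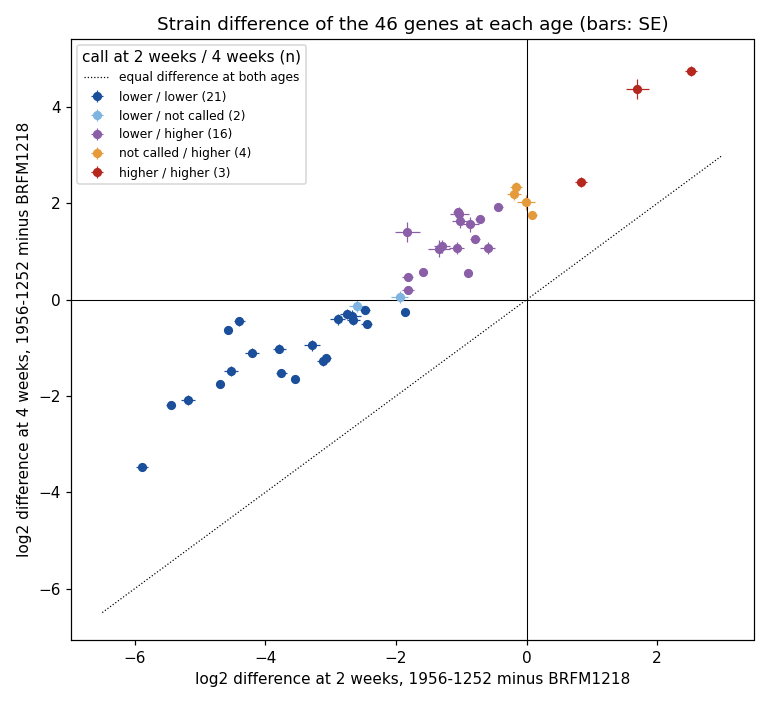
Each point is 1 of the 46 genes, with its edgeR log2 difference (NIBIO strain minus BRFM1218) at 2 weeks on the x axis and at 4 weeks on the y axis, bars for SE, coloured by its calls at both ages. All points lie above the dotted line of equal difference, as the rule fixes, and they run from -5.89 and -3.47 (TRAVEDRAFT_62904) to 2.52 and 4.75 (TRAVEDRAFT_30448).

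The 21 genes lower in the NIBIO strain at both ages were the most abundant group in young BRFM1218. Their median level was 110 CPM there and 26.3 CPM at 4 weeks, against 10.4 and 11.3 CPM in the NIBIO strain. TRAVEDRAFT_62904 had the largest difference at both ages, -5.89 (SE 0.09) at 2 weeks and -3.47 (SE 0.09) at 4 weeks. It was followed by TRAVEDRAFT_166188 with -5.45 (SE 0.06) and -2.18 (SE 0.06). TRAVEDRAFT_137201 had -5.19 (SE 0.11) and -2.08 (SE 0.10), and TRAVEDRAFT_141797 had -4.70 (SE 0.05) and -1.76 (SE 0.05). For these 4 genes the adjusted p by edgeR's quasi-likelihood test was at most 1.19e-17 at 2 weeks and 2.15e-12 at 4 weeks.

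At the other end of this group the strains had nearly met at 4 weeks. TRAVEDRAFT_141203 measured 183, 165 and 170 CPM in young BRFM1218 and 34.5, 40.3 and 36.6 CPM in old. Its NIBIO libraries measured 31.4, 28.3 and 33.2 CPM at 2 weeks and 29.9, 33.4 and 32.7 CPM at 4 weeks. Its difference went from -2.48 (SE 0.08) to -0.22 (SE 0.08, adjusted p = 0.0131). The call at 4 weeks was lost without BRFM1218 4-week replicate 2 (adjusted p = 0.0785) and without NIBIO 4-week replicate 1 (0.0529), and the sign turned to 0.08 with upper quartile scaling and 0.34 with library size alone. TRAVEDRAFT_69465, TRAVEDRAFT_49195, TRAVEDRAFT_52416, TRAVEDRAFT_122524, TRAVEDRAFT_154838, TRAVEDRAFT_21680 and protein 127171 also turned sign at 4 weeks with library size alone, and the call of TRAVEDRAFT_69465 was lost without BRFM1218 4-week replicate 2 (adjusted p = 0.0841). With upper quartile scaling TRAVEDRAFT_154838 turned sign too, and the 4-week calls of TRAVEDRAFT_21680, TRAVEDRAFT_52416, TRAVEDRAFT_49195, TRAVEDRAFT_69465 and TRAVEDRAFT_122524 were lost, with adjusted p from 0.121 to 0.99.

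In the 16 genes that crossed over, the median level was 32.4 CPM in young BRFM1218 and 8.62 CPM in old, against 13.9 and 13.8 CPM in the NIBIO strain. TRAVEDRAFT_167576 measured 254, 251 and 236 CPM in BRFM1218 at 2 weeks and 34.4, 37.9 and 45.6 CPM at 4 weeks. NIBIO levels were 121, 127 and 109 CPM at 2 weeks and 130, 139 and 144 CPM at 4 weeks. BRFM1218 was above every library of the NIBIO strain when young and below every one when old, and the log2 difference went from -1.05 (SE 0.08, adjusted p = 1.03e-09) to 1.82 (SE 0.08, adjusted p = 9.07e-13).

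TRAVEDRAFT_173815 measured 309, 304 and 306 CPM in young BRFM1218 and 63.1, 52.2 and 54.7 CPM in old, with the NIBIO strain at 102 ± 0.606 CPM and 84.4 ± 0.952 CPM. Its difference went from -1.59 (SE 0.06) to 0.57 (SE 0.06), and the groups did not overlap at either age. TRAVEDRAFT_49901 and TRAVEDRAFT_52983 had smaller differences when young, -0.43 (SE 0.07) and -0.80 (SE 0.08). At 4 weeks theirs were 1.93 (SE 0.07) and 1.26 (SE 0.08). At 2 weeks TRAVEDRAFT_49901 turned to 0.08 with library size alone, and its call was lost with upper quartile scaling (-0.13, adjusted p = 0.0851). TRAVEDRAFT_48778 was called at 4 weeks at 0.20 (SE 0.09, adjusted p = 0.049), and this call was lost on leaving out any of 9 libraries (BRFM1218 2-week replicate 2, BRFM1218 4-week replicates 1 and 3, or any NIBIO library), with adjusted p from 0.0529 to 0.12. It was lost too with the replicate number as a block (adjusted p = 0.069), with no filter on low counts (0.0585) and with only the 4-week libraries fitted (0.135).

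For 4 genes no difference between young mycelium of the strains was called at 2 weeks with TMM. The 95% intervals hold for that scaling only, and other scalings, given below, placed some of the differences outside them. TRAVEDRAFT_168022 measured 42.2, 42.5 and 43.5 CPM in young BRFM1218 and 40.7, 41.8 and 32.1 CPM in the young NIBIO strain, a difference of -0.16 (95% interval -0.36 to 0.04). At 4 weeks it measured 9.44, 7.58 and 8.62 CPM in BRFM1218 and 41.1, 45.0 and 44.3 CPM in the NIBIO strain, a difference of 2.35 (SE 0.10, adjusted p = 5.56e-13). The old BRFM1218 libraries lay below all other libraries of this gene.

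No call at 2 weeks and a higher level at 4 weeks were also found in TRAVEDRAFT_51854, TRAVEDRAFT_160456 and TRAVEDRAFT_43661, with young differences of 0.08 (-0.06 to 0.23), -0.19 (-0.42 to 0.04) and -0.02 (-0.30 to 0.27). At 4 weeks their differences were 1.77 (SE 0.07), 2.19 (SE 0.12) and 2.02 (SE 0.15). The young differences depended on the scaling: with library size alone TRAVEDRAFT_168022 was at 0.35, TRAVEDRAFT_160456 at 0.32, TRAVEDRAFT_43661 at 0.50 and TRAVEDRAFT_51854 at 0.60, all called. Upper quartile scaling gave 0.14, 0.11, 0.29 and 0.39 in the same order, of which TRAVEDRAFT_51854 was called (adjusted p = 2.99e-05). TRAVEDRAFT_160456 was also called, as lower in the NIBIO strain, without NIBIO 4-week replicate 1 (-0.24, adjusted p = 0.0458) and with only the 2-week libraries fitted (-0.19, adjusted p = 0.0258).

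The 3 genes higher in the NIBIO strain at both ages were low in BRFM1218 from the start. TRAVEDRAFT_30448 measured 29.6, 34.1 and 32.0 CPM in BRFM1218 at 2 weeks and 4.98, 5.52 and 5.56 CPM at 4 weeks. In the NIBIO strain it measured 193, 201 and 156 CPM at 2 weeks and 134, 144 and 152 CPM at 4 weeks. Its log2 age change in the NIBIO strain was -0.36 (adjusted p = 0.00146 by edgeR), called lower. With TMM-scaled CPM the rule did not choose this gene. Every library of the NIBIO strain was above every one of BRFM1218, with a difference of 2.52 (SE 0.09, adjusted p = 2.21e-14) at 2 weeks and 4.75 (SE 0.10, adjusted p = 3.22e-17) at 4 weeks.

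TRAVEDRAFT_74587 measured 14.0, 14.2 and 12.3 CPM in young BRFM1218 and 2.26, 3.70 and 1.04 CPM in old, against 43.6 ± 0.854 and 51.7 ± 0.367 CPM in the NIBIO strain. The old BRFM1218 libraries varied most here, with a coefficient of variation of 56.9%, the highest of any member in any group. The difference was 1.70 (SE 0.17) at 2 weeks and 4.38 (SE 0.20) at 4 weeks. TRAVEDRAFT_32656 had differences of 0.84 (SE 0.09) and 2.44 (SE 0.10), with levels of 19.6, 23.6 and 21.7 CPM in young BRFM1218 and 40.4, 36.4 and 39.0 CPM in the young NIBIO strain.

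The last pair, TRAVEDRAFT_42853 and TRAVEDRAFT_155662, were lower in the young NIBIO strain and not called at 4 weeks with TMM. TRAVEDRAFT_42853 fell in BRFM1218 from 45.4 ± 2.76 to 10.2 ± 1.69 CPM and stood at 7.53 ± 0.703 and 9.27 ± 1.03 CPM in the NIBIO strain. Its difference was -2.59 (SE 0.12) at 2 weeks and -0.13 (95% interval -0.39 to 0.13) at 4 weeks. For TRAVEDRAFT_155662 the values were -1.95 (SE 0.13) and 0.06 (-0.21 to 0.33). The old libraries of the strains overlapped for both genes on this scale. In CPM without TMM they did not: TRAVEDRAFT_42853 measured 7.59 to 10.29 CPM in old BRFM1218 and 10.35 to 12.68 CPM in the old NIBIO strain, and TRAVEDRAFT_155662 5.94 to 8.83 CPM and 11.66 to 11.97 CPM. With library size alone both were called higher at 4 weeks, TRAVEDRAFT_42853 at 0.42 (adjusted p = 0.00496) and TRAVEDRAFT_155662 at 0.61 (adjusted p = 0.000229). Upper quartile scaling called TRAVEDRAFT_155662 as well, at 0.36 (adjusted p = 0.0142). Without BRFM1218 4-week replicate 3 the sign of both turned, to 0.00029 and -0.09, with no call.

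Order along the assembly was taken from the RefSeq table, which places 45 of the 46 members, and the genes named here as neighbours were chosen after their values were seen. Directly adjacent were 2 pairs, TRAVEDRAFT_73333 with TRAVEDRAFT_49901 and TRAVEDRAFT_74587 with TRAVEDRAFT_173815. How many adjacent pairs as many models drawn at random would give was not computed. TRAVEDRAFT_69055 and TRAVEDRAFT_62650 had 1 model between them, and TRAVEDRAFT_141797 and TRAVEDRAFT_43435 had 3. TRAVEDRAFT_73333 and its neighbour TRAVEDRAFT_49901 had the same strain calls, lower in the NIBIO strain at 2 weeks and higher at 4 weeks, while their log2 age changes in the NIBIO strain were -0.26 and 0.27. In the other pair both genes were higher in the old NIBIO strain, but at 2 weeks TRAVEDRAFT_74587 was higher there and TRAVEDRAFT_173815 was lower.

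TRAVEDRAFT_167576 lay directly beside TvLac6, a laccase gene. TvLac6 measured 89.4, 90.0 and 96.6 CPM in BRFM1218 at 2 weeks and 3.69, 6.52 and 4.73 CPM at 4 weeks. In the NIBIO strain it measured 4.61, 6.08 and 5.61 CPM at 2 weeks and 9.37 ± 0.533 CPM at 4 weeks. Both genes were high in young and low in old BRFM1218, but in the NIBIO strain TvLac6 was low at 2 weeks, where TRAVEDRAFT_167576 stood at 119 ± 9.48 CPM. TvLac6 was above the range in the NIBIO strain, with an age ratio of 1.68, and so was no member.

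**Figure D5:**
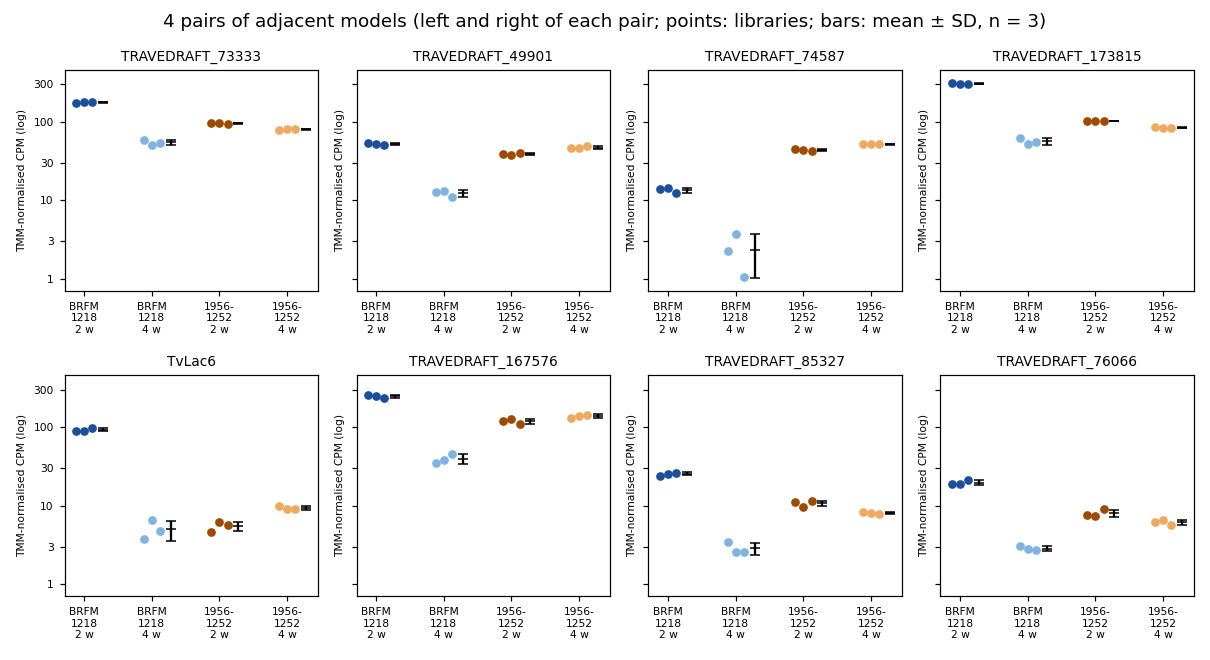
Points are TMM-normalised CPM in each library on a log axis, with bars for mean ± SD (n = 3), for 4 pairs of adjacent models. The left and right panel of each pair are neighbours in the order of the RefSeq table, with scaffold ends inferred. TvLac6 and TRAVEDRAFT_167576 both drop in BRFM1218, from 89.4 and 254 CPM in its first young library to 3.69 and 34.4 CPM in its first old one, but differ in the NIBIO strain.

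In the order of the RefSeq table TRAVEDRAFT_76066 stood next to TRAVEDRAFT_85327, which missed the lower limit in the NIBIO strain by little. Scaffold ends were inferred from a fall in start position along that order, so short scaffolds in a row can be joined. The stretches so inferred held 2 models for TRAVEDRAFT_76066, 2 for TRAVEDRAFT_84996 and 3 for TRAVEDRAFT_32656. Whether each stretch is a single scaffold, and so whether TRAVEDRAFT_85327 is a true neighbour, was not checked. Of the 57 distinct models that directly flank a member and were expressed in both strains, 6 (10.5%) met the limit on the fall in BRFM1218. The share over all 8418 expressed models was 1.41%. These 57 include the members of the adjacent pairs, which meet the limit by the rule. Of the 53 that are no members, 2 (3.77%) met it. TRAVEDRAFT_85327 was among these 2. The shares at an age ratio of 0.5 or less were 11.3% (6 of 53) for flanking models that are no members and 4.15% for all expressed models.

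Reads that align to more than 1 place limit a few members. TRAVEDRAFT_49195 had 11.7% of its reads not unique, TRAVEDRAFT_84996 6.75% and TRAVEDRAFT_76066 5.53%, and their values may include reads of near-identical copies. In 8 members (17.4%) the share exceeded 1%, against 3.30% of expressed models, and the median member had 0.0443%. With unique reads alone, all 46 genes met the selection again and 1 more was added. The 4-week difference of TRAVEDRAFT_49195, -0.35 (SE 0.14, adjusted p = 0.0301), was no longer called with unique reads (-0.28, adjusted p = 0.0775), and it was lost too without BRFM1218 4-week replicate 1, NIBIO 4-week replicate 1 or NIBIO 4-week replicate 2, with adjusted p from 0.0643 to 0.156. The models ranged from 282 to 4823 nt, with a median of 1192 nt against 1446 nt for expressed models.

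None of the 42 models with a symbol, which are mostly peroxidases, laccases and other haem or copper enzymes, met the rule. Only 0.322% of all models did, so in a list of this length none is no result about these enzymes. Of the 24 of them expressed in both strains, 8 were in the range in the NIBIO strain and 3 met the limit on the fall in BRFM1218. Of all 8418 models expressed in both strains, 5370 were in that range and 119 (1.41%) met the limit on the fall. These 3 were the laccase genes TvLac6 (0.067), TvLac2 (0.250) and TvLac4 (0.300), and in the NIBIO strain all 3 were above the range, at 1.68, 1.47 and 1.54.

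The genes that met the same limit in BRFM1218 but lay outside the range in the NIBIO strain give a frame for the strain differences. Of the 15 below the range, 12 were lower and 3 higher in the NIBIO strain at 2 weeks, with a median log2 difference of -1.70. Of the 58 above it, 57 were lower and 0 higher, with a median of -3.32. At 4 weeks the medians were -0.39 and 0.18, beside 0.13 for the members. Whether the members differ from either group was not tested.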

How the data were processed

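RNA of 12 libraries was measured. Per the file headers, the authors deposited for each gene model a count of uniquely aligned reads, a count of all reads and an RPKM value, which matched total reads divided by model length and column total (largest relative difference 1.73e-07). For aligner, counter, build and strandedness, a name or setting is not given in the sources used here. No deposited column went unused for want of a sample.

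The rule was applied to CPM from all reads, without TMM. Levels and tests used edgeR 4.0.16 in R 4.3.3: filterByExpr kept 12648 models, including all 46 members, and removed 1648, scaling was by TMM, with 1 mean per group (8 residual degrees of freedom), and Benjamini-Hochberg adjustment covered all tested models of a comparison. The biological coefficient of variation was 8.27%. Standard errors are the log2 change over the root of F. Pairs of libraries with identical values numbered 0. Fits were checked on simulated counts in which all groups shared their mean levels, except for a small set of changed genes. The real strains differed in most tested genes, so this check does not cover the scaling between strains.

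The members and lists were chosen with earlier results of these data known. Named genes were the 8 members with the lowest age ratio and the 8 highest in BRFM1218 at 2 weeks. To these came the 4 largest called strain differences in each direction at each age. Also named were the 3 genes on each side of each limit and members of the longest run of neighbours. These parts gave 24 members, and members that a small count needs were named besides them. Others, and all neighbours, were named after their values were seen. Names and order came from the RefSeq table of Trametes versicolor v1.0. No coordinates are given, because the authors' build is not named. Protein similarity and promoter letters were not analysed here. Alternatives were other scalings (RLE, upper quartile, library size), no filter, unique reads, DESeq2 1.42.0, only the groups compared, a replicate block, and leaving out each library.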

Additional observations from a re-analysis of the deposited data

How the results depend on the processing

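With other ways of applying the rule, 55 genes were chosen with TMM-scaled CPM (42 of the 46 among them), 47 with unique reads (46), 47 with a pseudocount of 0.5 (42), 48 with none (40) and 44 to 51 when a library was left out. Of the 46 members 30 were kept in all 16 of these settings. The members not chosen with TMM-scaled CPM were TRAVEDRAFT_30448, TRAVEDRAFT_76066, TRAVEDRAFT_127904 and TRAVEDRAFT_21680. With library size as the only scaling, members called higher in the NIBIO strain numbered 14 for age and 7 for the strain difference at 2 weeks, and members called lower at 4 weeks numbered 12. With only the 2 groups compared in the fit, 14 members rose and 11 fell with age in the NIBIO strain. Without 1 library in turn, these counts were 4 to 10 and 5 to 9, members lower at 2 weeks 39 to 40, and at 4 weeks 22 to 23 higher and 19 to 21 lower.

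In 15 cases a strain difference turned sign and was called in at least 1 of the fits compared. Upper quartile scaling moved the 4-week differences of TRAVEDRAFT_141203 to 0.080 and TRAVEDRAFT_154838 to 0.032. Library size alone moved 2-week differences to 0.32 in TRAVEDRAFT_160456, 0.35 in TRAVEDRAFT_168022, 0.082 in TRAVEDRAFT_49901 and 0.50 in TRAVEDRAFT_43661. It moved 4-week differences to 0.10 in TRAVEDRAFT_21680, 0.15 in TRAVEDRAFT_52416, 0.21 in TRAVEDRAFT_49195, 0.34 in TRAVEDRAFT_141203, 0.25 in TRAVEDRAFT_69465, 0.12 in TRAVEDRAFT_122524, 0.42 in TRAVEDRAFT_42853, 0.043 in protein 127171 and 0.29 in TRAVEDRAFT_154838. These scalings shift the median of all tested genes at 4 weeks from 0.11 to 0.40 and 0.66. A scaling factor applies to all genes of a library, so the members shift along with that median. Why the scalings differ between the strains was not tested. A further 14 changes of sign had no call on either side. They were in TRAVEDRAFT_43661, TRAVEDRAFT_160456 and TRAVEDRAFT_168022 at 2 weeks and TRAVEDRAFT_42853 and TRAVEDRAFT_155662 at 4 weeks. The 2-week call of TRAVEDRAFT_134744 was lost with library size alone (-0.079, adjusted p = 0.506). All 46 members were called lower with age in BRFM1218 in each alternative.

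Replicate numbers gave no sign of pairing: deviations of same-numbered libraries from their group mean correlated at -0.206 to 0.0452. For differently numbered libraries the range was -0.143 to 0.208. Deviations within a group of 3 sum to 0, so these correlations are a weak guide. With the replicate block, 7515 and 6000 genes were called for age in BRFM1218 and the NIBIO strain, and 10673 and 10752 for strain at 2 and 4 weeks. Among the members the block ended 1 call, that of TRAVEDRAFT_48778 at 4 weeks (0.20, adjusted p = 0.069). DESeq2 called 5 members higher and 10 lower with age in the NIBIO strain, and 23 higher and 21 lower at 4 weeks. Depth was no limit for most members, but TRAVEDRAFT_74587 had as few as 30 reads in a library.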
